A study of Mus musculus with 26 samples.

Results

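The regions described here are the CTCF peaks of mouse embryonic stem cells (mESC) in which the same assay was sequenced with and without bisulfite conversion. CTCF M-ChIP tags chromatin pulled down by an antibody to CTCF with a transposase that carries methylated adaptors, so that the fragments can be bisulfite treated and a read carries both where CTCF bound and which cytosines were methylated. In CTCF M-ChIP-NC an aliquot of such fragments was kept before the treatment and sequenced unconverted. The samples were those titled as replicates 1 and 2 of each kind, 4 of the 26 samples of the series. All came from KH2 mESC, a single cell line, grown on irradiated feeder cells that were taken out by pre-plating, and the same Millipore antibody to CTCF was used in both groups. CTCF-M-ChIP was made with methylated adaptors and bisulfite converted, while CTCF-M-ChIP-NC was not converted. The labels do not say whether replicates were separate cultures, so p-values measure only the spread between these samples, which may be technical.

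CTCF is a zinc finger protein that binds a long DNA motif, and together with the cohesin ring it sets the ends of chromatin loops and acts at insulators. Some of its motif sites hold CpG dinucleotides, and at certain sites, among them the imprinting control region between H19 and Igf2, binding is known to be lost when the DNA is methylated. Most of its sites are shared between cell types.

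For every sample the authors deposited a MACS2 peak list, with a fold enrichment over the local background and a −log10 q-value at each summit. Entries were collapsed to distinct regions. CTCF-M-ChIP replicate 1 had 33898 entries in 32911 regions and replicate 2 had 32195 in 31282. CTCF-M-ChIP-NC replicate 1 had 22576 entries in 22261 regions and replicate 2 had 31409 in 30470. The union of the 4 lists held 43694 regions, in which regions that overlapped by at least 1 bp were joined.

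The number of fragments piled up at each summit could be worked back from the fold enrichment and the −log10 p-value together, as a whole number for 100% of regions. The median was 13 fragments in CTCF-M-ChIP replicate 1 and 8 in replicate 2. It was 10 in CTCF-M-ChIP-NC replicate 1 and 12 in replicate 2. From the lowest background and the narrowest region of each list, depth was estimated at 4.77 and 2.22 M fragments for the CTCF-M-ChIP replicates and at 2.91 and 3.31 M for those of CTCF-M-ChIP-NC. The shallowest library, CTCF-M-ChIP replicate 2, thus had the second longest list, and it held 2995 regions of only 3 fragments, where the other lists held 0. Regions of at most 4 fragments made up 17.1% of its list, against 2.99%, 4.80% and 3.36% in CTCF-M-ChIP replicate 1 and CTCF-M-ChIP-NC replicates 1 and 2.

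Overlap is given as a share of each list, and a longer list can hold more of another one. Of the regions of CTCF-M-ChIP replicate 1, 73.9% were found in replicate 2 of its own group, 61.9% in CTCF-M-ChIP-NC replicate 1 and 79.3% in CTCF-M-ChIP-NC replicate 2. For CTCF-M-ChIP replicate 2 the shares were 77.8% in its own group and 58.5% and 74.5% in the unconverted replicates. CTCF-M-ChIP-NC replicate 1, the shortest list, was found again at 91.5% and 82.2% in the converted replicates and at 88.4% in CTCF-M-ChIP-NC replicate 2. Of CTCF-M-ChIP-NC replicate 2, 85.5% and 76.3% were in the converted replicates and 64.5% in its own group. The longest list, that of CTCF-M-ChIP replicate 1, thus held the largest share of each of the other 3. These shares between pairs of lists were not computed at equal list length, for which only counts of the classes are given below.

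Strong regions were shared far more than weak ones. In CTCF-M-ChIP replicate 1, 92.7% of the quartile of regions with the most fragments were in both unconverted samples, and 0.717% were in neither. In the quartile with the fewest fragments, 4 to 8, these shares were 18.6% and 44.1%. CTCF-M-ChIP-NC replicate 2 went the same way, with 95.8% of its top quartile and 36.9% of its bottom quartile in both converted samples. Finding again the other sample of the same group followed the same order, from 43.6% to 96.1% in CTCF-M-ChIP replicate 1 and from 30.4% to 92.5% in CTCF-M-ChIP-NC replicate 2.

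All 4 samples shared 16985 regions, 38.9% of the union. Both CTCF-M-ChIP samples and neither unconverted sample held 1637 regions, 3.75% of the union. Both CTCF-M-ChIP-NC samples and neither converted sample held 369, or 0.845%. Each sample alone held more than the class of its own group: 3706 regions were in CTCF-M-ChIP replicate 1 alone and 5333 in replicate 2 alone, with 970 and 2640 in CTCF-M-ChIP-NC replicates 1 and 2. Of the pairs that cross the groups, CTCF-M-ChIP replicate 1 shared 633 regions found in no other sample with CTCF-M-ChIP-NC replicate 1 and 2257 with replicate 2. CTCF-M-ChIP replicate 2 shared 159 and 1020 with them. Only 1 of these 4 pairs thus held more than the converted-only class, and 3 held more than the unconverted-only class. The ratio of converted-only to unconverted-only regions was 4.44. When the 20000 regions of lowest q were taken from each sample, the classes held 841 and 827 regions, a ratio of 1.02. Of these, 10.9% and 45.1% were in all 4 full lists, so many of the 827 were shared regions that fell outside the top 20000 of the converted samples. The ratio was 4.65 with −log10 q of at least 5, 4.25 when summits within 100 bp were matched and 2.41 with a reciprocal overlap of 50%. Leaving out CTCF-M-ChIP replicate 2 gave 7.21. Leaving out CTCF-M-ChIP-NC replicate 1 turned the order, with 2439 converted-only and 3009 unconverted-only regions. These counts have no replicates and were not tested.

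Regions of the shared class were the strongest. Their median fold enrichment was 10.6 and 8.25 in CTCF-M-ChIP replicates 1 and 2 and 7.83 and 9.25 in CTCF-M-ChIP-NC replicates 1 and 2, over medians of 17, 11, 11 and 16 fragments. Converted-only regions had a median fold of 6.30 and 5.68 in replicates 1 and 2, at 8 and 6 fragments. Unconverted-only regions had 5.43 and 6.10, also at 6 and 8 fragments. Both one-group classes therefore lay well under the shared class, at like heights. The lowest heights in the lists were 4 and 3 fragments in CTCF-M-ChIP replicates 1 and 2 and 4 in both CTCF-M-ChIP-NC lists. The maximum fold enrichment was 23.4 in the converted-only and 15.5 in the unconverted-only class, against 42.1 in the shared class.

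Most regions of all 3 classes held the CTCF motif. The deposited matches to MA0139.1, searched on both strands, lay only in peaks of the merged converted samples, and that merged list overlapped 99.7% of converted-only but 56.9% of unconverted-only regions. Deposited matches fell in 96.8% of shared regions (95% Wilson interval 96.5 to 97.1), 90.5% of converted-only (89.0 to 91.8) and 49.9% of unconverted-only regions (44.8 to 54.9). The last share is low through the list that was searched: among unconverted-only regions inside the merged list, 87.6% held a deposited match. A matrix built from the deposited matches was therefore run over all regions and both strands, with the 5th percentile of the scores of those matches as the limit. Most deposited matches pass this limit by construction, so in regions inside the merged list the matrix gives no separate evidence. The matrix found a match in 96.6% of shared regions (96.3 to 96.8), 90.3% of converted-only (88.8 to 91.6) and 92.7% of unconverted-only regions (89.6 to 94.9). The intervals of the one-group classes overlap, and, like all intervals given here, they cover counting error only. Of 32851 promoters of 300 bp from RefSeq (GRCm38), 20.1% held a match by the same limit. A wider region holds a match more easily, and median widths were 333 bp in shared, 209 in converted-only and 225 in unconverted-only regions. Within 50 bp of the summit the shares were 85.0%, 68.7% and 65.9%, which turned the order of the one-group classes. With the limit at the 50th percentile, over whole regions, they were 61.7%, 50.2% and 55.6%.

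The best deposited FIMO score had a median of 18.1 in shared regions, with quartiles of 15.5 and 20.4. In converted-only regions it was 16.2, with quartiles of 14.0 and 18.5, and in unconverted-only regions 16.7, with 14.0 and 18.9. The unconverted-only values rest on the 184 of 369 regions with a deposited match. Matrix scores over all regions had medians of 17.9 in shared, 16.8 in converted-only and 17.3 in unconverted-only regions. By both scores the one-group medians thus lay below the shared one, in narrower regions, and the part of width was not tested. Among regions with a match, the best match held a CpG in 47.4% of shared (95% Wilson interval 46.6 to 48.1), 33.6% of converted-only (31.2 to 36.0) and 43.9% of unconverted-only regions (38.7 to 49.2). In regions of 1 sample alone this share was 33.1% and 29.1% for CTCF-M-ChIP replicates 1 and 2. For CTCF-M-ChIP-NC replicates 1 and 2 alone it was 35.3% and 39.5%. A share below that of shared regions was thus not particular to the converted-only class.

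CTCF ChIP made with Nextera transposase in the same cells, without methylated adaptors, gave a separate list in 2 samples. Both of these samples held 99.9% of shared regions, 84.6% of converted-only regions (95% Wilson interval 82.8 to 86.3) and 92.1% of unconverted-only regions (88.9 to 94.5). Neither held 39 converted-only regions, 2.38%, and 2 unconverted-only regions, 0.542%. Where a region was listed, the median Nextera fold enrichment was 13.9 and 17.8 in the samples for shared regions, 8.03 and 10.4 for converted-only and 7.86 and 10.7 for unconverted-only regions. Most one-group regions were therefore also CTCF peaks in libraries of another kind, with a lower enrichment than the shared ones. Regions found in 1 sample alone differed: 58.0% of those of CTCF-M-ChIP replicate 1, 19.9% of replicate 2, 34.1% of CTCF-M-ChIP-NC replicate 1 and 50.3% of replicate 2 were in both Nextera samples, and 68.3%, 32.3%, 39.7% and 69.9% held a motif match.

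Shared regions lay at promoters and in exons more often than converted-only regions. Promoters, taken as 3 kb to each side of an annotated start (GENCODE M21), held 30.8% of shared regions (95% Wilson interval 30.1 to 31.5), 25.6% of converted-only (23.5 to 27.8) and 30.1% of unconverted-only regions (25.6 to 34.9). Other genic sequence held 35.5%, 37.7% and 32.8%, and intergenic sequence 33.8%, 36.7% and 37.1%. Exons were overlapped by 16.7% of shared (16.2 to 17.3), 9.53% of converted-only (8.20 to 11.05) and 13.8% of unconverted-only regions (10.7 to 17.7). A wider region overlaps an exon more easily, and median widths were 333, 209 and 225 bp, so width and class cannot be told apart in the exon shares. Mean GC content was 48.0% (SD 6.66 over regions) in shared, 46.5% (SD 6.96) in converted-only and 48.4% (SD 6.80) in unconverted-only regions. In a fixed 200 bp at the summit it was 49.3%, 46.3% and 48.2%, which turned the order of shared and unconverted-only regions. CpG density was 1.69, 1.28 and 1.59 per 100 bp. Soft-masked repeats made up 22.8% of shared sequence, 32.6% of converted-only and 31.4% of unconverted-only sequence on average. The 31 bp around the summit occurred at more than 1 place in the genome for 2.91% of shared (2.67 to 3.17), 7.70% of converted-only (6.50 to 9.09) and 8.13% of unconverted-only regions (5.75 to 11.4).

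Methylation at the motif came from the authors' table of the merged converted samples, which has no replicates and covers the merged peaks only. Cytosines with at least 5 reads were counted once, in 8354 shared, 452 converted-only and 63 unconverted-only regions. Reads were summed over cytosines, so a read across several of them counts at each. The intervals of all read shares treat these counts as independent and are therefore too narrow. In shared regions 22305 of 288010 reads at 22076 cytosines were methylated, 7.74% (95% Wilson interval 7.65 to 7.84), with a median coverage of 12 reads. In converted-only regions 1670 of 6616 reads at 842 cytosines were methylated, 25.2% (24.2 to 26.3), with a median coverage of 7. Unconverted-only regions inside the merged list had 144 of 697 reads methylated at 101 cytosines, 20.7% (17.8 to 23.8), with a median coverage of 6. Regions of CTCF-M-ChIP replicates 1 and 2 alone had 22.6% and 34.2% of reads methylated, and those of CTCF-M-ChIP-NC replicates 1 and 2 alone 26.3% and 32.8%, all at a median coverage of 6. Higher methylation and lower coverage than in the shared class were thus not particular to the one-group classes. Of the regions with a measured motif, 8.41% of converted-only (6.19 to 11.3) and 0.898% of shared regions (0.717 to 1.12) were methylated above 80%. The separate M-ATAC table, with cytosines over whole accessible regions, reached 164 converted-only, 40 unconverted-only and 4514 shared regions. There 3.29% (3.05 to 3.55), 1.47% (1.21 to 1.79) and 2.40% (2.36 to 2.44) of reads were methylated. The part of coverage and of binding strength in the motif values was not tested. Reads given below at the motif of a named region are those at cytosines in its deposited matches. These can lie outside the best match by the matrix.

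The strongest region of the converted-only class, by the lower of its fold enrichments, lay at chr4:145851464-145851675 (GRCm38), intergenic and 6746 bp from the start of Gm13246. Its fold enrichment was 23.4 and 21.3 in replicates 1 and 2, over 38 and 30 fragments, and 2 of 54 reads at its motif were methylated. Neither Nextera sample listed it, and the 31 bp around its summit occurred at 2 places in the genome. The second lay in an intron of Ablim1, which encodes an actin-binding LIM protein, at chr19:57161314-57161604, with folds of 12.9 and 12.1. The third lay in an intron of Plekha7, an adherens junction protein, 383 bp from its transcription start at chr7:116198944-116199192, with 12.3 and 12.1. The fourth, in an intron of Catspere2 at chr1:178146392-178146714, had 12.6 and 10.8, was in neither Nextera sample and had a summit sequence that occurred at 2 places. The fifth, at chr12:23729911-23730037, was intergenic, 6371 bp from Gm9309, with 11.7 and 10.8, and was listed by 1 Nextera sample only. All 5 held a deposited motif match. Their best matches by the matrix are shown 5′ to 3′ on the strand of the motif, with CpG in capitals, because they show what sequence stood in regions that the unconverted lists lacked.
Gm13246 region, chr4:145851596-145851614, plus strand: tCGccaccagggggcagca
Ablim1 region, chr19:57161425-57161443, plus strand: atgccagaagagggcacca
Plekha7 region, chr7:116199091-116199109, minus strand: caaactctagagggcagcc
Catspere2 region, chr1:178146631-178146649, plus strand: tttccacaagagggcactg
Gm9309 region, chr12:23729996-23730014, minus strand: tgacccctagatggcagCG

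The strongest unconverted-only region lay in an intron of Acap3, a GTPase-activating protein for Arf proteins, 751 bp from its start at chr4:155904357-155904608. Its fold enrichment was 9.71 and 15.5 in CTCF-M-ChIP-NC replicates 1 and 2, over 14 and 25 fragments. In the merged converted samples 14 of 26 reads at its motif were methylated, so converted reads did cover this region. The next lay in introns of Rap1gap2 at chr11:74598036-74598331, with folds of 9.34 and 10.2, and of March1, a membrane ubiquitin ligase, at chr8:66442866-66443098, with 9.66 and 9.25. An intron of Atg16l2, a relative of an autophagy protein, held the fourth at chr7:101294519-101294733, with 8.78 and 10.4. The fifth was intergenic at chr7:92938065-92938311, with 9.11 and 8.73. Both Nextera samples listed all 5 of these regions, with folds from 8.14 to 19.3, and each summit sequence occurred at 1 place. Motif matches stood in all 5, with a CpG in 3 of them.
Acap3 region, chr4:155904499-155904517, plus strand: ttggcagcagagggCGctg
Rap1gap2 region, chr11:74598144-74598162, plus strand: aggccagaagatggctctg
March1 region, chr8:66442966-66442984, minus strand: tgtccactagagggtgtag
Atg16l2 region, chr7:101294669-101294687, minus strand: acaccagaagagggCGcca
Intergenic region of chromosome 7, chr7:92938161-92938179, minus strand: gCGccagatggtggCGctc

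In the shared class the strongest region lay in an intron of Gm2619 at chr1:85323020-85323559. Its fold enrichment was 37.2 and 39.1 in CTCF-M-ChIP replicates 1 and 2 and 29.3 and 34.2 in CTCF-M-ChIP-NC replicates 1 and 2, over 124, 113, 72 and 116 fragments. The next, at the transcription start of 2610005L07Rik at chr8:20424713-20425032, had folds of 42.1, 32.7, 25.4 and 26.5 in the same order. Its motif held 2 CpGs, where 6 of 247 reads were methylated. The other 3 were intergenic. The region at chr16:3122815-3123162 had 32.7, 27.8, 24.1 and 28.8, and the region at chr6:3447378-3447763 had 31.5, 30.9, 23.3 and 26.4. The region at chr9:123925322-123925670 had 35.5, 22.5, 26.5 and 26.4, and 37 of 245 reads at its motifs were methylated. These folds are as deposited, not centred on the sample medians, and limma on centred values called none of these regions.
2610005L07Rik region, chr8:20424866-20424884, minus strand: gggccaccagagggCGCGa
Intergenic region of chromosome 9, chr9:123925440-123925458, plus strand: tcaccacCGggtggCGgca

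Fold enrichment was compared at the 16985 shared regions with limma on log2 values centred on each sample's median. Before centring the median difference, converted minus unconverted, was 0.14. At a Benjamini-Hochberg adjusted p under 0.05, 1 region was higher in CTCF-M-ChIP, 0.00589% of those tested, and 0 were lower, 0%. At an unadjusted p under 0.05, limma gave 320 higher and 410 lower regions, 1.88% and 2.41%, and without centring 382 and 69. Pearson's r of log2 fold between samples, across regions that are not independent replicates, was 0.494 between the CTCF-M-ChIP replicates and 0.477 between those of CTCF-M-ChIP-NC. Across the groups it ran from 0.417 to 0.548, so that samples of different groups were as alike as replicates. A low count does not show that the groups were equal.

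The region that passed lay in an intron of Sec22c, which encodes a protein of vesicle traffic between the endoplasmic reticulum and the Golgi, at chr9:121697370-121697984. Its fold enrichment was 20.8 and 15.5 in CTCF-M-ChIP replicates 1 and 2 and 5.85 and 3.84 in CTCF-M-ChIP-NC replicates 1 and 2, over 47, 26, 7 and 6 fragments. The groups did not overlap. The log2 difference was 1.79 ± 0.32 (SE, limma adjusted p = 0.00937). The Nextera samples listed it at 14.7 and 19.9. Its 615 bp held 0 CpGs and 7 deposited motif matches, the best with a FIMO score of 26.5, and the motif below is the best match by the matrix. With the replicate number as a block the limma adjusted p was 0.0807, so the call was lost. Without CTCF-M-ChIP replicate 1 it was 0.133 at a log2 difference of 1.75, and without CTCF-M-ChIP-NC replicate 2 it was 0.998 at 1.36. Without CTCF-M-ChIP replicate 2 it was 0.0325 at 1.83, and without CTCF-M-ChIP-NC replicate 1 it was 0.00390 at 2.22, the lone sample of a group then being taken to vary like the others. The limma adjusted p was 0.00854 without centring, 0.00358 on log2(fold + 1) and 0.00152 on fragments at the summit, so these choices kept the call.
Sec22c region, chr9:121697700-121697718, plus strand: tggccaccagagggcactg

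Of the other regions with the lowest p, none passed. In an intron of Fam186b, at chr15:99283535-99283745, the folds were 12.0, 8.28, 4.10 and 3.85 in CTCF-M-ChIP replicates 1 and 2 and CTCF-M-ChIP-NC replicates 1 and 2 (log2 difference 1.19 ± 0.32, limma adjusted p = 0.999). At the promoter of Cacna1a, which encodes a voltage-gated calcium channel, chr8:84639272-84639663 had 16.7, 11.04, 5.63 and 5.85 (1.11 ± 0.32, limma adjusted p = 0.999). This region was 81.4% GC with 18.9 CpGs per 100 bp, and 1 of 207 reads at its motif was methylated. In the other direction an intron of Tyw1, an enzyme of tRNA modification, had 4.83, 4.16, 11.4 and 9.50 at chr5:130296132-130296442 (-1.35 ± 0.32, limma adjusted p = 0.575). An intergenic region 11752 bp from the start of Bach2, a transcription factor of B cells, had 7.12, 4.95, 10.5 and 16.6 at chr4:32586683-32586917 (-1.29 ± 0.32, limma adjusted p = 0.734). The last, in an intron of the adhesion receptor gene Adgrb2 at chr4:130005709-130006130, had 4.33, 4.87, 8.49 and 11.1 and held no motif match (-1.22 ± 0.32, limma adjusted p = 0.999).

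Base composition moved with replicate number more than with conversion. Mean GC content was 48.8% and 46.8% in the CTCF-M-ChIP lists and 49.7% and 48.0% in those of CTCF-M-ChIP-NC, so that replicate 1 stood above replicate 2 in both groups. At shared regions Spearman's rho of GC content with the log2 difference between replicates 1 and 2 was 0.142 in CTCF-M-ChIP and 0.148 in CTCF-M-ChIP-NC, and with the difference between groups -0.0741, given as descriptions across regions of 4 libraries. In the fifth of regions with the highest GC content the median log2 difference between groups was -0.03, and between replicates 0.10 and 0.11. The pairs of samples across groups ran from -0.15 to 0.08 there. Pairs of the same replicate number were both negative, at -0.05 for replicates 1 and -0.03 for replicates 2. CTCF-M-ChIP replicate 1 minus CTCF-M-ChIP-NC replicate 2 gave 0.08, and CTCF-M-ChIP replicate 2 minus CTCF-M-ChIP-NC replicate 1 gave -0.15. By motif methylation the group difference was 0.00 in 6722 regions under 20%, 0.00 in 1557 from 20 to 80% and -0.04 in 75 above 80%. In those 75 regions the pairs ran from -0.11 to 0.04.

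Peaks were also compared by width and by the place of the summit. At shared regions the median width was 251 and 226 bp in CTCF-M-ChIP replicates 1 and 2 and 209 and 271 bp in CTCF-M-ChIP-NC. The summit lay a median of 19 and 27 bp from the centre of the best motif in the converted and 22 and 21 bp in the unconverted samples. Within 50 bp of it lay 89.6%, 78.6%, 84.2% and 86.1% of summits, lowest in CTCF-M-ChIP replicate 2, the library of fewest fragments. Neither measure separated the groups.

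Over whole lists, 7 values per sample were tested by exact permutation, two-sided, where 2 samples against 2 cannot give a p below 0.333. The number of regions was 5731 higher in CTCF-M-ChIP, with SDs of 1152 and 5805 in the converted and unconverted groups (n = 2 each, exact permutation p = 0.333, adjusted p = 0.778). The groups did not overlap in this value. The difference was 1626.5 without CTCF-M-ChIP-NC replicate 1 and 9835.5 without CTCF-M-ChIP-NC replicate 2. With −log10 q of at least 5 it was 3798, and the groups then overlapped (exact permutation p = 0.667). The share of regions in both Nextera samples was 93.3% and 84.3% in CTCF-M-ChIP and 96.5% and 93.9% in CTCF-M-ChIP-NC. The difference was -6.37 percentage points (exact permutation p = 0.333, adjusted p = 0.778). It was -10.9 without CTCF-M-ChIP replicate 1 and -1.87 without CTCF-M-ChIP replicate 2. With −log10 q of at least 5 this difference was -1.67, and with the top 20000 regions per sample it was -0.128, so little of it was left at equal list length. In the other 5 values the groups overlapped. Motif matches were in 90.2% and 80.1% of converted and 89.6% and 91.9% of unconverted regions (exact permutation p = 0.667). This difference was -5.58 percentage points, -10.6 without CTCF-M-ChIP replicate 1 and -0.542 without CTCF-M-ChIP replicate 2. With −log10 q of at least 5 it was -1.91, and with the motif limit at the 50th percentile -3.92. Under these 2 settings the groups did not overlap (exact permutation p = 0.333 for each). With the top 20000 regions per sample the difference was -0.0075. Promoter shares were 29.7%, 27.4%, 30.5% and 29.3% (exact permutation p = 0.667), and for GC content p was also 0.667 in the exact permutation test. Median fold enrichment was 8.43, 6.84, 7.22 and 7.84 (exact permutation p = 1), and median width 213, 191, 197 and 238 bp (exact permutation p = 0.667). Adjusted over the 7 values, p was 1 for fold enrichment and 0.778 for the others.

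The gene lists looked at were imprinted genes, pluripotency factors, genes of X inactivation, CTCF with cohesin, and Hox genes, 60 genes with 10 kb to each side. A region of any class lay at 47 of them, 78.3%, against 69.4% of the 21938 protein coding genes. The lists also hold noncoding genes, and no difference was tested. A shared region lay at 32, 53.3%, against 46.2% of protein coding genes. A converted-only region lay at 4 genes, 6.67%, and an unconverted-only region at 1, 1.67%. Over protein coding genes these shares were 5.89% and 1.49%. One-group regions at the lists were thus few.

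Among 16 imprinted genes, 13 had a region, 81.2%, and 5 a shared one, 31.2%. The converted-only region was near Igf2, the fetal growth factor, at chr7:142672221-142672485, with folds of 6.93 and 6.91 in CTCF-M-ChIP, and both Nextera samples listed it at 8.88 and 13.8. At Meg3, a maternally expressed noncoding RNA, a shared region in an exon, chr12:109542879-109543151, had 10.5 and 15.9 in CTCF-M-ChIP replicates 1 and 2 and 6.68 and 12.6 in CTCF-M-ChIP-NC. Its motif held 3 CpGs, with 3 of 87 reads methylated. In Plagl1, a zinc finger gene, an intronic region at chr10:13087083-13087708 had 12.6, 10.9, 10.02 and 7.62. At its deposited matches 2 of 10 reads were methylated, while its best match by the matrix held 0 CpGs. Near Nnat, 276 bp from the start of Blcap, chr2:157571550-157571896 had 12.6, 11.9, 5.75 and 7.26, with 0 of 30 reads methylated at the motif. On centred values limma called none of these shared regions.
Igf2 region, chr7:142672322-142672340, minus strand: tgaccaccagatgtcaagc
Meg3 region, chr12:109543036-109543054, minus strand: agacCGctagggggCGCGc

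Of 15 pluripotency genes 12 had a region, 80%, and 9 a shared one, 60%. Near Nanog, a core factor of the naive state, chr6:122720061-122720311 had folds of 14.1 and 10.02 in CTCF-M-ChIP replicates 1 and 2 and 10.1 and 12.0 in CTCF-M-ChIP-NC. In an intron of Tet1, which oxidises methylated cytosine, chr10:62881234-62881539 had 11.9, 10.4, 8.60 and 10.99 and held no motif match. Near Sall4, 336 bp from the start of Atp9a, chr2:168742745-168743022 had 12.4, 11.4, 9.19 and 8.40. The only one-group region was unconverted-only, near Tbx3 and 43 bp from the start of Tbx3os2 at chr5:119691261-119691533, with 5.43 and 4.66, listed at 7.20 and 7.79 by the Nextera samples. Of the 5 genes of X inactivation 4 had a region, 80%, and 3 a shared one, 60%. A converted-only region lay in an intron of Tsix, the antisense partner of Xist, at chrX:103443825-103444019, with 5.72 and 4.55 over 7 and 5 fragments, and 0 of 13 reads at its motif were methylated. A shared region in an exon of Xist, which also counts for Tsix, had 8.59, 4.82, 4.08 and 7.14 at chrX:103477499-103477845. At its deposited match 2 of 12 reads were methylated, though its best score by the matrix lay under the limit. At the start of Ftx, chrX:103622548-103622850 had 5.46, 5.27, 5.40 and 9.70.
Tbx3 region, chr5:119691320-119691338, minus strand: caaccagcagatggcagca
Tsix region, chrX:103443943-103443961, minus strand: agtccacaagatggCGata

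CTCF and cohesin genes had a region at 8 of 10, 80%, and a shared one at 6, 60%. The region near Ctcf itself, 219 bp from the start of Carmil2 at chr8:105685746-105686055, had folds of 17.1 and 11.3 in CTCF-M-ChIP replicates 1 and 2 and 14.1 and 9.25 in CTCF-M-ChIP-NC, and 3 of 42 reads at its motifs were methylated. At the start of Stag2, a cohesin subunit, chrX:42149133-42149335 had 16.0, 6.90, 10.9 and 8.69, with 0 of 86 reads methylated. An intron of Stag1 had 12.1, 8.90, 7.72 and 12.6 at chr9:100910364-100910748. A converted-only region in an intron of Wapl, which releases cohesin from DNA, had 3.95 and 5.27 over 4 and 5 fragments at chr14:34680367-34680575, and the 31 bp at its summit occurred at 30 places. At its motif 3 of 6 reads were methylated. Hox genes had a region at 10 of 14, 71.4%, and a shared one at 9, 64.3%. At 60 bp from a start of Hoxc10, in the windows of both Hoxc5 and Hoxc9, chr15:102966368-102966736 had 12.1, 14.0, 8.08 and 10.6. At Hoxa5, chr6:52204468-52204863 had 15.9, 8.02, 10.1 and 8.65, with 0 of 77 reads methylated. A converted-only region near Hoxd13, chr2:74663642-74663891, had 9.49 and 6.30 and held no motif match, while the Nextera samples listed it at 10.3 and 14.5.
Ctcf region, chr8:105685899-105685917, minus strand: caaacaccaggggaCGcca
Stag2 region, chrX:42149269-42149287, plus strand: CGgcCGacagatggCGcct
Wapl region, chr14:34680393-34680411, plus strand: acaccagaagagggCGtca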

How the data were processed

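The authors trimmed reads with Trim Galore 0.4.4, aligned converted reads to mm10 with Bismark 0.18.1, used SAMtools 1.3 (versions from the submitters' processing notes) and called peaks per sample with MACS2. The paper gives Bowtie2 for ChIP-seq and ATAC-seq and Bismark for M-ChIP and M-ATAC. Its text does not say which of them was used for the unconverted libraries, so conversion and alignment cannot be told apart here. The deposited peak lists give for each summit a ratio (column 7, enrichment at the summit as fold of local background) and a −log10 p-value and q-value. Deposited motif matches carry a score, a p-value and a q-value by FIMO. The authors' methylation tables of merged replicates give a count of methylated and of unmethylated reads and a percent per cytosine.

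Entries were collapsed to distinct regions, each with its highest summit by q. Regions overlapping by at least 1 bp formed a union. Fragments per summit were solved from fold and p-value with Poisson tails, within 0.001 of −log10 p. Depth used the MACS2 default size of the mouse genome and took the narrowest region as the fragment length. All deposited motif sequences equalled mm10 at their coordinates. Promoters were within 3 kb of a start of GENCODE M21. Uniqueness of 31 bp at summits, a measure chosen after seeing the data, was counted over assembled chromosomes and both strands. Groups were compared by exact permutation and by limma 3.58.1 in R 4.3.3, with Benjamini-Hochberg adjustment, both checked on simulated data. Python 3.11.15, numpy 2.4.6, pandas 2.3.3 and scipy 1.17.1 were used.

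Named regions were the 5 per class with the highest lower fold, the 3 of lowest limma p in each direction, one-group regions within 10 kb of listed genes and up to 3 genes per list with the strongest shared regions. Members and lists were chosen with earlier results of these data known. Alternatives covered q, list length, overlap, motif, promoter and GC windows, scaling, replicate block and each sample left out.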

Additional observations from a re-analysis of the deposited data

How the results depend on the processing

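Over the 7 values per sample, 46 of the 49 alternatives that can change a difference had the direction first found. The others left out a sample: without CTCF-M-ChIP-NC replicate 2 the difference in median width was 5 bp in place of -15.5, with a range over samples left out of -36 to 5, and the difference in median fold enrichment was -0.688 without CTCF-M-ChIP replicate 1 and -0.200 without CTCF-M-ChIP-NC replicate 1, in place of 0.107, with a range over samples left out of -0.688 to 0.901. With the top 20000 regions per sample it was 0.979. The cause was not tested. Since the exact permutation and sign-flip tests of 2 against 2 samples cannot pass, directions say nothing about thresholds. With the top 20000 regions per sample, converted-only regions numbered 841, unconverted-only 827 and shared 11137, in place of 1637, 369 and 16985. With a reciprocal overlap of 50% the converted-only class held 1809, the unconverted-only class 752 and the shared class 10706. Leaving out a sample gave 2439 to 6970 converted-only and 741 to 3009 unconverted-only regions, since fewer samples then define a class, and 17357 to 21870 shared ones. With the replicate number as a block limma called 0 regions higher and 0 lower (362 and 456 at an unadjusted p under 0.05, lowest adjusted p = 0.0807), so that its only call was lost. The unconverted control was an aliquot kept before conversion, but labels do not say that samples of the same number share a preparation, and the deviations of same-numbered samples had an r of 0.0802 over regions. In the sign-flip test on paired samples, whose smallest p is 0.5, exact p was 0.5 for the number of regions, with a mean difference of 5731, so this test could not make or lose a call. Exact p was also 0.5 for GC content, promoter share and Nextera share, which were lower in the converted sample of both same-numbered pairs. With −log10 q of at least 5, or the top 20000 regions, limma called 0 and the Sec22c region was no longer tested (217 and 244 higher and 288 and 193 lower at an unadjusted p under 0.05). Leaving out a sample gave 0 to 1 regions higher and 0 to 1 lower.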
